A study of Homo sapiens with 6 samples.

Results

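Transcripts of 10 genes known as targets of YAP and TEAD were followed after silencing of OGT in LX-2, an immortalised line of human hepatic stellate cells. The genes were CTGF, CYR61, ANKRD1, AMOTL1, AMOTL2, AJUBA, AXL, F3, CRIM1 and CCDC80, and each was found by its symbol, 10 of the 16907 genes in the count files. The files use the older symbols CTGF and CYR61 for the genes now called CCN2 and CCN1. The genes were chosen by their reputation as targets, but with their differences between siOGT and siControl in these same libraries already known. The differences between the groups are therefore given for the 10 genes as a description. Calls are counted beside those of all genes, and no exact p-value of a single one of the 10 genes is printed. Calls, p thresholds passed and confidence intervals of single genes among the 10 belong to this description and are no test of them.

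LX-2 cells had been transfected with 20 nM of a small interfering RNA (siRNA) for 72 h using JetPrime. The siControl group (3 libraries) received a Silencer Select negative control siRNA, and the siOGT group (3 libraries) received an ON-TARGETplus SMARTpool, a mixture of siRNAs against OGT from another supplier. Untransfected cells were not part of this comparison, so within these 6 libraries the silencing of OGT and the kind of siRNA cannot be told apart. All cells came from 1 line. The question was how lowering OGT, the enzyme that attaches O-GlcNAc to nuclear and cytoplasmic proteins, alters the transcriptome of these myofibroblast-like cells.

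YAP and its relative TAZ (gene WWTR1) are co-activators that carry no DNA-binding domain of their own and act on genes mainly through the TEAD factors, which recognise the letters CATTCC. The Hippo kinases STK3 and STK4 activate the kinases LATS1 and LATS2, which phosphorylate YAP and TAZ and keep them in the cytoplasm. In hepatic stellate cells, a stiff matrix favours nuclear YAP and TAZ, which take part in the activation to myofibroblasts. The targets include secreted matricellular proteins, membrane receptors and inhibitors of the pathway itself. Many also respond to other inputs, such as TGF-beta in the case of CTGF.

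To show where TEAD could meet these genes, the RefSeq promoter windows (GRCh38.p14, 250 bases before to 50 bases after an annotated start) were searched for CATTCC and its reverse complement GGAATG. Of the 10 genes, 8 had at least 1 window, 11 windows in all. Windows of 5 genes held the letters, compared with 14.0% of 35116 windows and 16.7% of 27305 genes in the whole table. CTGF held 3 matches, starting at -169, -104 and -95 from the start, a number reached by 0.128% of all windows. ANKRD1 held 2, starting at -220 and -128, and 1.37% of all windows held at least 2. CTGF and ANKRD1 held the most matches, and whether matches relate to the response to siOGT was not tested. The 250 upstream bases of both genes are printed 5' to 3' on the gene's strand (minus for both), with TEAD letters in capitals. They cover chr6:131951373-131951622 for CTGF and chr10:90921088-90921337 for ANKRD1.
CTGF: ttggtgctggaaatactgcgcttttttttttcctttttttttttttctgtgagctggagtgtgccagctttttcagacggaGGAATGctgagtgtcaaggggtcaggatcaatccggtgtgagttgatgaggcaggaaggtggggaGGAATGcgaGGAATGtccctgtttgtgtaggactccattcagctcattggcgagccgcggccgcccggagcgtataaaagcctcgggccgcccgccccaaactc
ANKRD1: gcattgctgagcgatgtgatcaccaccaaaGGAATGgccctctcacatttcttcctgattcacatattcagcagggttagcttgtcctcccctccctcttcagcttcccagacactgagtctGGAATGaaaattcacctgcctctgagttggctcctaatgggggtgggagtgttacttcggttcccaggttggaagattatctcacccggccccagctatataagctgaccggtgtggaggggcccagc
In CTGF the matches at -104 and -95 lay next to each other, with 3 bases between them. In ANKRD1 they were further apart. AMOTL2, AJUBA and AXL held 1 match each, in a window at an alternative start, and their surroundings are printed in the same way for chr3:134374484-134374543 (minus), chr14:22976869-22976928 (minus) and chr19:41226516-41226575 (plus).
AMOTL2: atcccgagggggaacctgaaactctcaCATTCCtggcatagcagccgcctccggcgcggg
AJUBA: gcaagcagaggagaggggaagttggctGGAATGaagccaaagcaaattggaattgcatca
AXL: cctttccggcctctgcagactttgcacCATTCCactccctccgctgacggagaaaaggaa
The windows of AMOTL1, F3 and CCDC80 held no match to these letters. The only windows of AMOTL1 (chr11:94768106-94768405) and CCDC80 (chr3:112641094-112641393) lay inside the genes as placed below. The outermost starts of these 2 genes were therefore not searched. The AP-1 letters TGANTCA, also searched on both strands, occurred at -223 and -210 in the F3 window and at -195 in the ANKRD1 window, against 7.71% of all windows. The CArG box bound by serum response factor occurred in none of the 11 windows and in 1.29% of all windows. These are matches of letters in a short window and were not tested as binding sites.

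**Figure D1:**
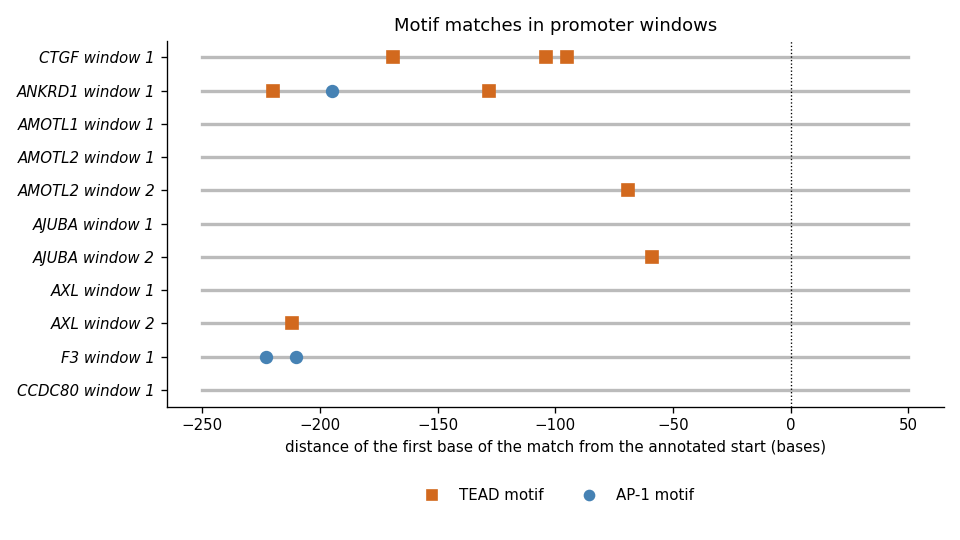
Positions of TEAD motif (squares) and AP-1 motif (circles) matches in the 11 promoter windows of 8 YAP/TEAD target genes; grey lines span each window and the x axis gives the distance in bases from the annotated start (dotted line). CTGF carries 3 TEAD matches and ANKRD1 carries 2, whereas the windows of AMOTL2, AJUBA and AXL with a match carry 1.

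The libraries held 25996770 to 27966801 counts. OGT remained at 22.0% of its siControl level (log2 fold change -2.18, edgeR adjusted p-value 2.71e-12, lower in 3 of 3 pairs), so the labels matched their target. Stellate cell and fibroblast markers such as COL1A1 and PDGFRB were present at 1 CPM (counts relative to library size) or more for 8 of 8 genes, and none of the 3 hepatocyte markers in the files reached this level. Of the 3 immune markers in the files CD68 alone reached it, and their summed level was 124 to 151 CPM in siControl and 167 to 206 CPM in siOGT. Of the 4 cholangiocyte markers in the files KRT7 and SOX9 reached it, and KRT19 and EPCAM did not. Their summed level was 88.6 to 126 CPM in siControl and 93.1 to 127 CPM in siOGT. Of the 3 endothelial markers in the files VWF and CDH5 reached it (list sum 3.18 to 7.69 CPM in siControl, 3.06 to 5.65 CPM in siOGT). The part of these genes in the results was not tested. Because RNA was extracted from whole cultures, a lower level per cell and fewer cells expressing a gene cannot be told apart.

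The 10 target genes did not move together in siOGT. CTGF, CYR61 and AMOTL1 were lower in siOGT, ANKRD1 and CCDC80 were higher, and AMOTL2, AJUBA, AXL, F3 and CRIM1 were not called. The paired edgeR test, in which replicate number is a block and genes are called when their adjusted p-value is 0.05 or lower, thus called 5 of the 10 genes. Over all 14853 genes tested it called 3766, or 25.4%, of which 1885 were higher (12.7%) and 1881 were lower (12.7%). Log2 fold changes of the 10 genes ran from -0.63 to 0.68, with a median of 0.12, compared with a median of 0.01 over all genes. The median size regardless of sign was 0.21 for the 10 genes and 0.19 for all genes. The libraries of the 2 groups did not overlap for 4 of the 10 genes (CTGF, CYR61 and AMOTL1 lower, AXL higher), and for 23.9% of all genes. In all 3 pairs, 6 of the 10 genes were higher in siOGT and 3 were lower. Over all 14853 genes tested, 4069 were higher and 3957 lower in all 3 pairs, so agreement between pairs was common. The calls rested on the pairing. Without the replicate block edgeR called none of the 10 genes and 0.875% of all genes, with 2 of the 10 (CTGF and AMOTL1) at an unadjusted p under 0.05, and DESeq2 without the block called the same 2. These counts describe the chosen genes and are no test of them.

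**Figure D2:**
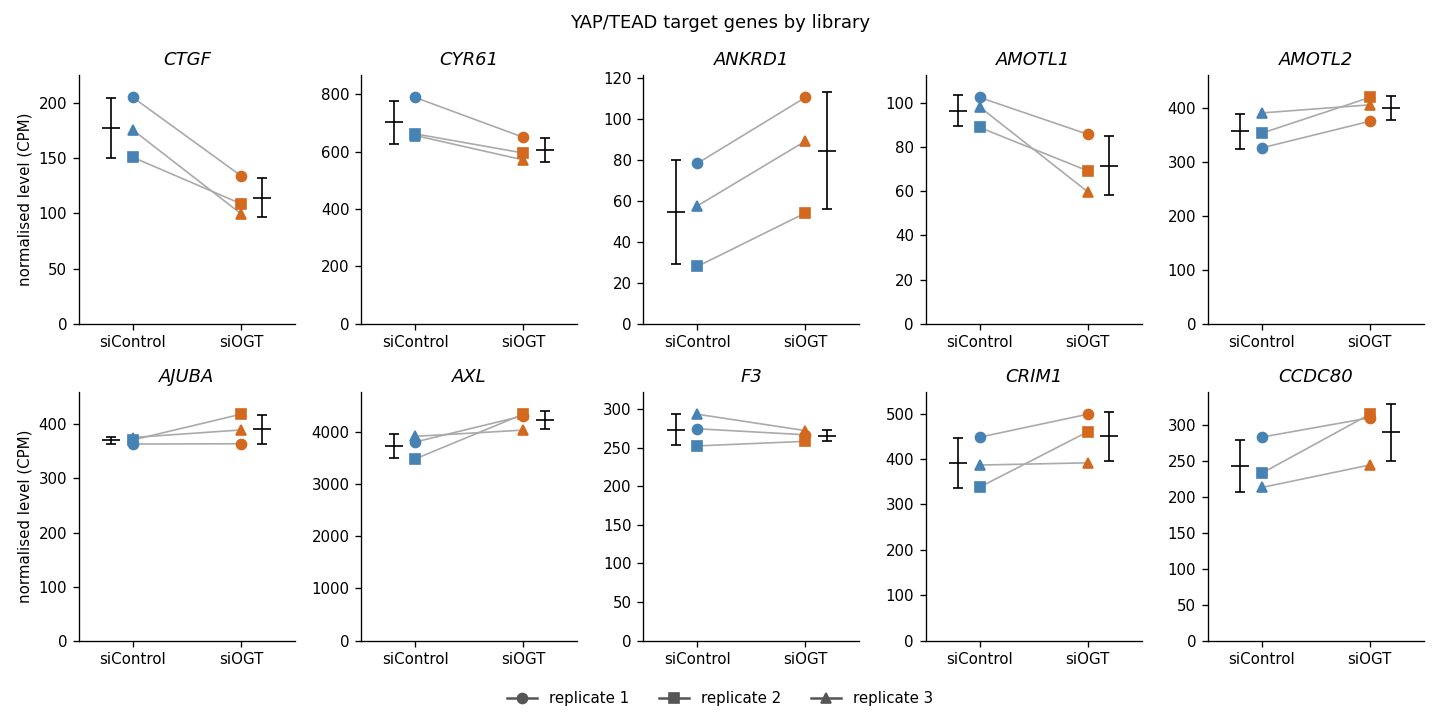
Normalised level (CPM, y axis from 0) of the 10 YAP/TEAD target genes in each siControl (blue) and siOGT (orange) library; lines join libraries of the same replicate number, shown by marker shape, and black bars give the mean ± SD of 3 libraries. CTGF, CYR61 and AMOTL1 fall along every line, and ANKRD1 and CCDC80 rise along every line. The uncalled genes AMOTL2, AXL, CRIM1 and AJUBA also rise along every line, AJUBA hardly at all in replicate 1. The ANKRD1 groups overlap because its replicates lie far apart.

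The first group comprised secreted matricellular proteins of the CCN family. CTGF (connective tissue growth factor, chr6:131948176-131951372, minus strand, 5 exons) encodes a profibrotic protein that is widely used as a readout of YAP activity. CTGF measured 205, 151 and 175 CPM in siControl replicates 1, 2 and 3, and 134, 109 and 99.7 CPM in siOGT replicates 1, 2 and 3. Every siOGT library was below every siControl library. The mean went from 177 ± 27.2 to 114 ± 17.8 CPM (SD, n = 3 each), and the log2 fold change of -0.63 (SE 0.072, 95% confidence interval -0.78 to -0.48) corresponds to 64.5% of the siControl level. The drop was seen in each pair, with log2 ratios of -0.61, -0.47 and -0.82. CTGF shares 278 exonic bases (11.9% of its exonic length) with LINC01013 on the opposite strand, and counting was specific for strand.

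CYR61 (cysteine-rich angiogenic inducer 61, chr1:85580761-85584589, plus strand) encodes the closest relative of CTGF and binds integrins. It measured 789, 662 and 656 CPM in siControl and 650, 595 and 571 CPM in siOGT. The groups did not overlap, but the highest siOGT library lay just below the lowest siControl libraries. With a log2 fold change of -0.21 (SE 0.066, 95% confidence interval -0.35 to -0.07), CYR61 was retained at 86.4% of its siControl level. CTGF and CYR61 therefore moved in the same direction by different amounts. Within a library, the ratio of CTGF to CYR61 counts was 0.260, 0.228 and 0.267 in siControl and 0.206, 0.183 and 0.175 in siOGT. The ratio was lower in every siOGT library, by 0.42 ± 0.17 on the log2 scale (mean ± SD over 3 pairs), and it does not depend on how libraries are scaled.

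ANKRD1 (chr10:90912096-90921087, minus strand, 9 exons) encodes an ankyrin repeat protein of the nucleus and the sarcomere, induced by mechanical stress. Its siControl libraries held 78.3, 28.0 and 57.5 CPM and its siOGT libraries 110, 54.1 and 89.1 CPM. The groups overlapped: siOGT replicate 2 lay below siControl replicates 1 and 3. Each siOGT library was nonetheless above the siControl library of its own number, with log2 ratios of 0.50, 0.95 and 0.63. This gave a log2 fold change of 0.68 (SE 0.079, 95% confidence interval 0.51 to 0.85), the highest of the 10 genes and equal to 1.60-fold. Without pairing the estimate was 0.63, but ANKRD1 was then called by neither edgeR nor DESeq2.

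CTGF and ANKRD1, both widely used as readouts of YAP activity, thus diverged. They had the lowest and the highest log2 fold change of the 10 genes, so their ratio restates this difference and is no separate evidence. The share of other gene pairs with such a change was not computed. Their log2 fold changes differed by 1.31, with an SD of 0.19 over the 3 pairs. The ratio of CTGF to ANKRD1 counts in a library was 2.62, 5.39 and 3.05 in siControl and 1.21, 2.01 and 1.12 in siOGT. All 3 siOGT ratios were below all 3 siControl ratios, by 2.51-fold on average over pairs. The ratio of CYR61 to ANKRD1 was also lower in each pair, by 0.90 ± 0.18 on the log2 scale, but its groups overlapped, since siOGT replicate 2 lay above siControl replicate 1.

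**Figure D3:**
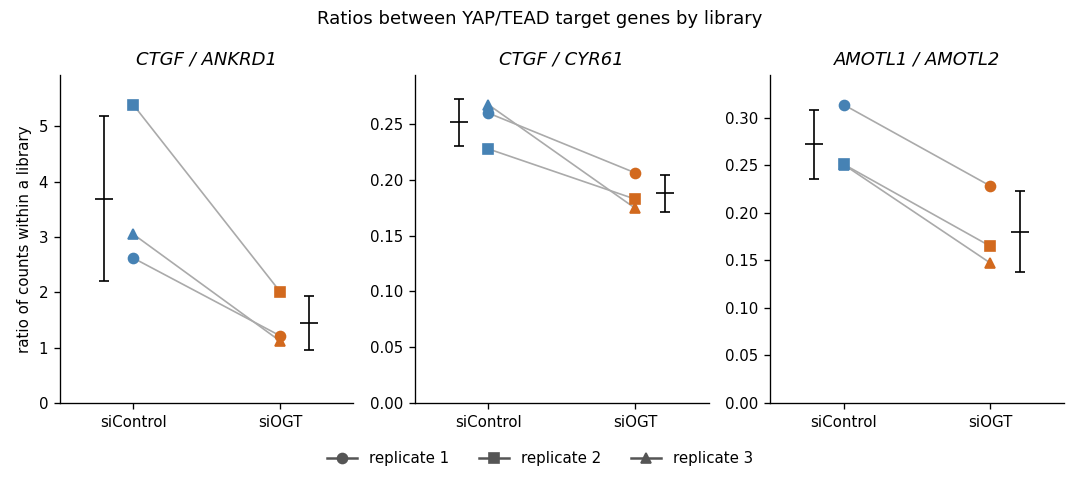
Ratio of counts within each library (y axis from 0, no unit) for CTGF over ANKRD1, CTGF over CYR61 and AMOTL1 over AMOTL2; lines join replicates of the same number and black bars give the mean ± SD of 3 libraries. In all 3 panels the siOGT libraries lie below the siControl libraries, and CTGF over ANKRD1 goes from between 2.62 and 5.39 to between 1.12 and 2.01.

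A second group encodes adaptors that feed back on the Hippo pathway at cell junctions. AMOTL1 and AMOTL2 are angiomotin-like proteins that bind YAP and can hold it outside the nucleus, and AJUBA is a LIM domain protein that binds LATS kinases. AMOTL1 (chr11:94706431-94876748, plus strand) measured 103, 89.0 and 98.3 CPM in siControl and 85.9, 69.3 and 59.9 CPM in siOGT. Each siOGT library was below all siControl libraries, with a log2 fold change of -0.44 (SE 0.079, 95% confidence interval -0.61 to -0.28). Pair 3 showed the strongest drop, at a log2 ratio of -0.71, compared with -0.26 and -0.36 in pairs 1 and 2.

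AMOTL2 (chr3:134355347-134375479, minus strand) went the other way. It measured 327, 354 and 391 CPM in siControl and 376, 420 and 406 CPM in siOGT, and siOGT replicate 1 lay within the siControl range. Each of the 3 pairs showed a higher AMOTL2 level in siOGT, but the gene was not called (log2 fold change 0.17, SE 0.067, 95% confidence interval 0.03 to 0.31). The ratio of AMOTL1 to AMOTL2 counts was 0.314, 0.251 and 0.251 in siControl and 0.228, 0.165 and 0.147 in siOGT. It was lower in every siOGT library (-0.61 ± 0.16 on the log2 scale). This ratio, too, restates the difference between log2 fold changes already given and is no separate evidence. AJUBA (chr14:22971177-22982551, minus strand) measured 364, 371 and 376 CPM in siControl and 364, 419 and 390 CPM in siOGT. The log2 fold change of AJUBA was 0.08 (SE 0.067, 95% confidence interval -0.06 to 0.22) and the gene was not called.

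The third group comprised proteins of the cell surface. AXL (chr19:41219223-41261766, plus strand) encodes the receptor tyrosine kinase for GAS6. It measured 3806, 3482 and 3915 CPM in siControl and 4308, 4339 and 4034 CPM in siOGT. All siOGT libraries lay above all siControl libraries, yet AXL was not called, with a log2 fold change of 0.18 (SE 0.072, 95% confidence interval 0.03 to 0.33), or 0.11 without replicate 2. F3 (chr1:94529173-94541759, minus strand) encodes tissue factor, which starts coagulation. Its levels of 274, 252 and 293 CPM in siControl and 267, 258 and 272 CPM in siOGT overlapped, and every siOGT library lay within the siControl range. F3 was higher in 1 of 3 pairs, and the log2 fold change of -0.04 had an unadjusted 95% confidence interval from -0.18 to 0.10.

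CRIM1 (chr2:36355778-36551135, plus strand) encodes a transmembrane protein with cysteine-rich repeats that binds bone morphogenetic proteins. It measured 448, 338 and 387 CPM in siControl and 499, 460 and 391 CPM in siOGT. CRIM1 was higher in 3 of 3 pairs by unequal amounts, with log2 ratios of 0.15, 0.44 and 0.02, and was not called (log2 fold change 0.21, SE 0.077). Without replicate 2 the estimate was 0.08. CCDC80 (chr3:112596797-112649530, minus strand), which encodes a secreted protein of the extracellular matrix, measured 283, 233 and 213 CPM in siControl and 310, 315 and 244 CPM in siOGT. The groups overlapped, since siOGT replicate 3 lay below siControl replicate 1. CCDC80 was higher in each pair, with a log2 fold change of 0.25 (SE 0.071, 95% confidence interval 0.11 to 0.40), and was called. Pair 2 carried most of this, at a log2 ratio of 0.44, and without replicate 2 the estimate was 0.16 and the call was lost.

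**Figure D4:**
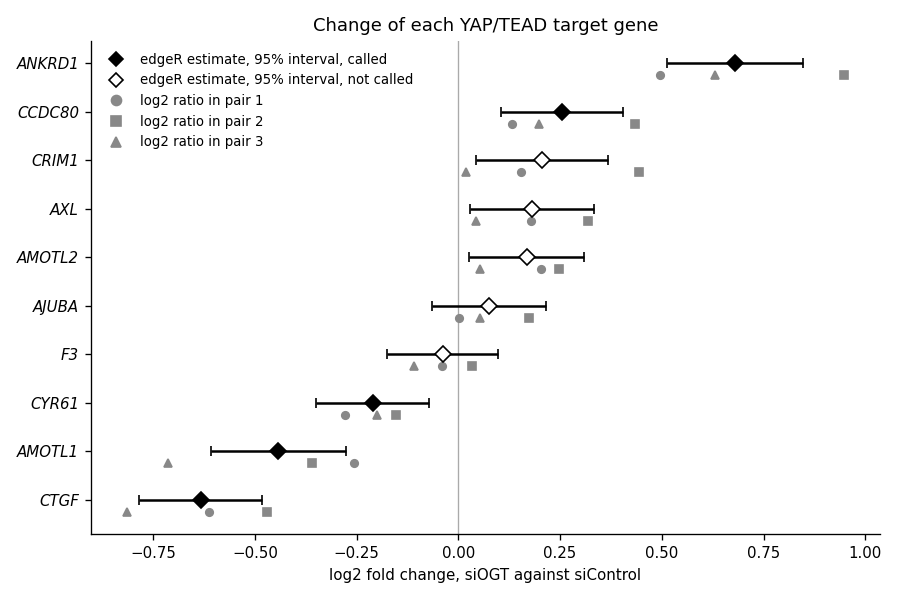
Log2 fold change of siOGT against siControl (x axis) for each of the 10 YAP/TEAD target genes; diamonds and bars are the edgeR estimate and its 95% confidence interval, filled where called, and grey markers are the log2 ratios in the 3 pairs. The genes spread from CTGF at -0.63 to ANKRD1 at 0.68, and F3 and AJUBA have intervals that include 0.

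The genes also differed in how steady they were between cultures of 1 group. ANKRD1 varied the most of the 10 genes in both groups. The SD of its log2 CPM over the siControl libraries was 0.76, above 98.9% of the 12373 genes averaging 1 CPM or more, and its highest siControl library held 2.80 times the level of the lowest. AJUBA varied the least in siControl, with an SD of 0.024, above 2.43% of genes, but its SD in siOGT was 0.10, and F3 varied the least there (0.038). CTGF had an SD of 0.22 in both groups, and the median over genes was 0.14 in siControl. Of the variance of log2 CPM over the 6 libraries, replicate number carried 68.3% and group 29.5% for ANKRD1, whereas replicate number carried 20.7% and group 75.5% for CTGF. The medians over genes were 48.6% for replicate number and 27.1% for group. For AXL replicate number carried 4.94% of the variance, the least among the 10 genes, and for F3 it carried 74.8%, the most. Replicate 2 was the low library for ANKRD1 in both groups. In siControl, replicate 2 was the lowest library for 6 of the 10 genes, and in siOGT replicate 3 was the lowest for 6.

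Levels of different genes were compared after division by exonic length (CPM per kilobase of merged exons). AXL was highest in siControl at 727 ± 43.9, followed by CYR61 at 190 ± 20.3, F3 at 94.7 ± 7.12, CTGF at 75.7 ± 11.6 and AJUBA at 62.9 ± 1.04 (SD, n = 3 each). AMOTL2 at 55.2 ± 5.03, CRIM1 at 53.8 ± 7.59, ANKRD1 at 30.5 ± 14.1, CCDC80 at 18.6 ± 2.77 and AMOTL1 at 9.63 ± 0.69 completed the order. The order depended on the length used: divided by the longest transcript, AJUBA (88.9 ± 1.46) stood above CTGF (75.7 ± 11.6) in siControl. With merged exons, the ranges of neighbours overlapped in siControl for F3 and CTGF, for AMOTL2 and CRIM1, and for ANKRD1 and CCDC80. In siOGT, CTGF stood at 48.8 ± 7.63 and ANKRD1 at 47.2 ± 15.9 CPM per kilobase. F3 at 92.0 ± 2.43 was then apart from CTGF, and the ANKRD1 range no longer overlapped that of CCDC80 at 22.2 ± 3.02.

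Genes outside the 10 with the pattern most like CTGF over the 6 libraries were PYGL (Pearson r = 0.997), WWC2 (0.994) and GSR (0.993), among 9610 genes averaging 10 CPM or more. Those most like ANKRD1 were REST (0.996), RRP12 (0.995) and N4BP2 (0.993). These are the top values of a search over many genes with 6 points each, and the points share replicate pairs and groups, so they are given as a description. The log2 fold changes of these genes were smaller than those of the genes they resembled. The values were -0.32 for PYGL, -0.28 for WWC2 and -0.52 for GSR, and 0.19 for REST, 0.24 for RRP12 and 0.13 for N4BP2. N4BP2 was not called. REST and RRP12 were called but lost their calls with DESeq2 and when any 1 replicate was left out. WWC2 lost its call without replicate 1.

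To see whether other genes of the programme also diverged, a further 22 YAP/TEAD targets were read from the same test. They too were chosen with earlier results of these data known, and the genes named, RBMS3 apart, were picked by their change. The p-values of single genes among them are therefore a description. Of the 21 tested (FOXF2 had too few counts), 5 rose and 3 fell in siOGT, and 13 were not called. The median log2 fold change was -0.02, next to 0.01 over all genes, and the 8 called of 21 stand beside 25.4% called over all genes. TGM2, which encodes a transglutaminase that cross-links matrix proteins, fell the most, from 12.5 ± 5.16 to 7.56 ± 2.86 CPM (log2 fold change -0.72, SE 0.11, edgeR adjusted p-value 0.000221). Its groups overlapped, and it was lower in 3 of 3 pairs. BIRC5, which encodes the mitotic protein survivin, fell from 157 ± 4.74 to 136 ± 4.41 CPM (-0.20, edgeR adjusted p-value 0.0283), and ARHGEF17, a guanine nucleotide exchange factor, from 290 ± 17.2 to 254 ± 31.2 CPM (-0.20, edgeR adjusted p-value 0.0440).

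GADD45A, a growth arrest and DNA damage gene, rose from 47.3 ± 13.5 to 77.5 ± 22.0 CPM (log2 fold change 0.71, SE 0.073, edgeR adjusted p-value 3.87e-06). INHBA, which encodes the subunit of activin A, rose from 14.2 ± 6.02 to 18.8 ± 6.94 CPM (0.43, edgeR adjusted p-value 0.00773). NT5E, which encodes the ecto-nucleotidase CD73, rose from 512 ± 40.2 to 650 ± 34.0 CPM (0.35, edgeR adjusted p-value 0.00105), and its groups did not overlap. All 3 were higher in 3 of 3 pairs. RBMS3 (0.31), which lies outside the rule for named genes and was chosen after its values were seen, also rose. BIRC5, ARHGEF17 and INHBA were no longer called when replicate 1 was left out, which left GADD45A, NT5E and TGM2 as the targets called. ARHGEF17 also lost its call with library totals alone and without replicate 3, where its estimate was -0.13. RBMS3 lost its call with DESeq2, without replicate 1 and without replicate 3, where its estimate was 0.14.

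**Figure D5:**
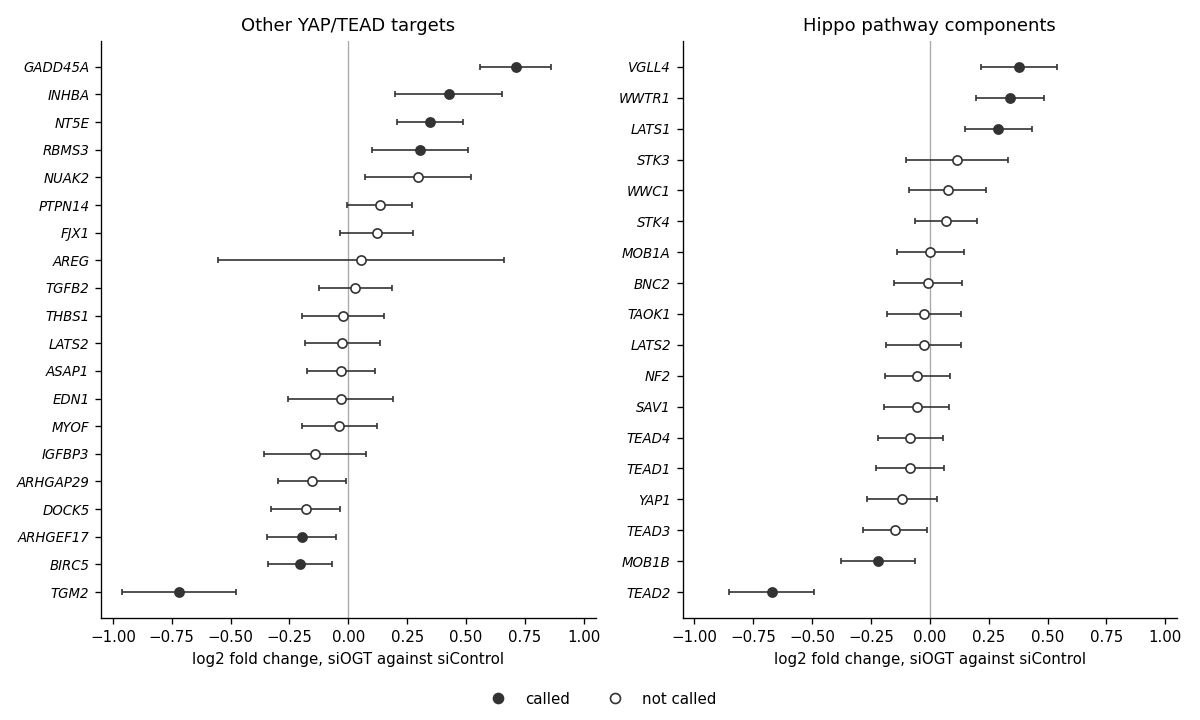
Log2 fold change of siOGT against siControl (x axis) with 95% confidence intervals for 20 of the 21 other YAP/TEAD targets tested (left) and 18 Hippo pathway components (right), filled where called by edgeR with the replicate block. Targets extend from TGM2 at -0.72 to GADD45A at 0.71, and Hippo components from TEAD2 at -0.67 to VGLL4 at 0.38.

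The pathway components themselves were examined last. This list was likewise chosen with earlier results of these data known, so p-values of single components are a description. Of 18 components tested, 3 rose and 2 fell, with a median log2 fold change of -0.03, beside the 25.4% called over all genes. Among the co-activators, YAP1 measured 191, 161 and 179 CPM in siControl and 181, 163 and 146 CPM in siOGT (log2 fold change -0.12, 95% confidence interval -0.27 to 0.03, edgeR adjusted p-value 0.236). WWTR1 rose from 125 ± 11.9 to 158 ± 15.1 CPM (0.34, SE 0.069, edgeR adjusted p-value 0.00157), and every siOGT library was above every siControl library.

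Among the DNA-binding factors, TEAD2 fell from 35.8 ± 3.36 to 22.7 ± 4.82 CPM (log2 fold change -0.67, SE 0.086, edgeR adjusted p-value 2.98e-05). The siControl libraries held 35.3, 39.4 and 32.7 CPM of TEAD2 and the siOGT libraries 18.7, 28.1 and 21.3 CPM. TEAD1 (168 ± 25.6 to 159 ± 31.6 CPM, -0.09), TEAD3 (116 ± 11.3 to 104 ± 10.7 CPM, -0.15) and TEAD4 (73.3 ± 5.61 to 69.3 ± 7.10 CPM, -0.08) were not called. VGLL4, which competes with YAP for TEAD, rose from 23.0 ± 3.42 to 29.8 ± 4.04 CPM (0.38, edgeR adjusted p-value 0.00161), with log2 ratios of 0.40, 0.38 and 0.36 in the pairs. The kinase LATS1 rose (0.29, edgeR adjusted p-value 0.00435) and its cofactor MOB1B fell (-0.22, edgeR adjusted p-value 0.0386). Without replicate 1 the calls of WWTR1, LATS1 and MOB1B were lost, and TEAD2 and VGLL4 were the components called. The call of MOB1B was also lost without replicate 2, with DESeq2 and with library totals alone. BNC2, which the study placed in a complex with TEAD4 and YAP1, had 51.7 ± 3.20 CPM in siControl and 51.4 ± 3.45 CPM in siOGT. It was not called (-0.01, 95% confidence interval -0.15 to 0.14). For BNC2, TEAD4 and YAP1 the study reported lower protein levels, stability and chromatin binding under an OGT inhibitor. It also reported lower transcripts by RT-qPCR under this inhibitor, given for a shorter time than the siRNA. The levels here are RNA after siOGT, and proteins were not measured in these libraries. Without the replicate block edgeR called 0 of the 21 targets and 0 of the 18 components, with 5 and 4 at an unadjusted p under 0.05, and DESeq2 called 2 and 1.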

How the data were processed

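RNA of 6 LX-2 cultures (3 siControl, 3 siOGT) was enriched with oligo-dT and sequenced paired-end as stranded libraries. Per the study's methods, the authors mapped reads to hg38 with Bowtie2 (2.3.5.1) and deposited expected counts per gene made with RSEM (1.3.1) in a mode specific for strand. The methods name a GENCODE annotation while some symbols have the RefSeq form, so which gene models were counted is uncertain, and this also limits levels per length. The authors' table of their own DESeq2 (1.36.0) comparison, which holds mean levels, log2 fold changes and adjusted p-values, was not used.

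Expected counts were rounded to whole numbers. The 2054 genes whose counts summed to less than 10 were left out, and 14853 were tested. Libraries were scaled by TMM, CPM were computed from these sizes, and differences were tested by quasi-likelihood in edgeR 4.0.16 (R 4.3.3), blocking on replicate number, with Benjamini-Hochberg adjustment over all genes tested. SE and unadjusted 95% confidence intervals per gene were derived from the F statistic, and log2 ratios in pairs used a prior count of 2. The methods pair samples of a replicate, and deviations from group means correlated by 0.69, 0.53 and 0.33 between libraries of the same number over 12373 genes. Between libraries of different numbers the correlations ran from -0.50 to 0.05. Deviations within a group are tied to each other, so the values are not independent. These correlations are across genes. The tests were tried on simulated counts first.

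The 10 genes, the lists of other targets and of Hippo components, and the tests were chosen with earlier results of these data known. Named besides the 10 genes were OGT, at most 3 highest and 3 lowest called genes of the other targets with a mean of at least 1 CPM, the co-activators, TEAD factors and BNC2, the called components, and the 3 genes most like CTGF and ANKRD1. RBMS3 was named outside this rule, and 1 of the other targets is counted but not reported here by name. LATS2 is in both lists. Gene positions are from GENCODE 44 (hg38) and promoter windows from RefSeq (GRCh38.p14). CYR61 and CRIM1 had no window in the promoter table. Depth limits precision, and between libraries the spread exceeds counting error.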

Additional observations from a re-analysis of the deposited data

How the results depend on the processing

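All 10 genes kept their direction under each of 10 alternatives, and so did the difference between CTGF and ANKRD1 (-1.43 to -1.24). CTGF and AMOTL1 were called in 9, ANKRD1 in 8, CYR61 and CCDC80 in 7, AXL and CRIM1 in 3, AMOTL2 in 2, and AJUBA and F3 in 0 of them. Without the replicate block, edgeR called 130 genes in all, 0 of the 10, 0 other targets and 0 Hippo components, and DESeq2 called 849, 2, 2 and 1. DESeq2 with the block called 2415 genes in all. With library totals alone 8 of the 10 were called, AMOTL2, AXL and CRIM1 being added. With 1 replicate left out, 1803 to 3439 genes were called in all, 4 to 8 of the 10, 3 to 9 other targets and 2 to 6 components. The count of 8 arose without replicate 3, which added AMOTL2, AXL and CRIM1. CYR61 was lost without replicate 1 and CCDC80 without replicate 2. Leaving out 1 pair leaves fewer samples in the fit, and the cause of the other shifts was not tested. BNC2, which was never called, changed sign with library totals (0.015) and ranged from -0.044 to 0.0080 with 1 replicate left out. No member window held the TEAD letters in their longer form with an A on each side. Dividing by the longest transcript instead of merged exons moved 13 of 20 levels per kilobase by more than 1 SD and put AJUBA above CTGF. The other named genes, RBMS3 included, kept their direction in each alternative run. There were 3 pairs, so differences of the size of those of AMOTL2, AXL and CRIM1 lay near the limit of what was called.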
